A study of Homo sapiens with 6 samples.

Results

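The 50 genes described here encode proteins that drive a cell into mitosis, build the mitotic spindle and divide the cell. They were chosen by symbol from the table of 46427 genes that the study deposited, and all 50 were found there. Their expression was compared between 3 RNA libraries from control-siRNA cells and 3 from TAZ-siRNA cells, all of the MDA-MB-231 line. MDA-MB-231 is a human metastatic breast cancer cell line with a mesenchymal character, and it carries no engineered allele here (the labels give the genotype as WT). TAZ, encoded by WWTR1, is a transcriptional co-activator of the Hippo pathway that works with TEAD transcription factors. The knockdown used a siGENOME reagent against human WWTR1 delivered with DharmaFECT4, so it was transient and left some WWTR1 mRNA. Each library came from a separate cell preparation of this 1 cell line, and the p-values measure the spread between these preparations only. The siRNA concentration and the time to harvest were given by the study for other assays and not for the sequenced cells.

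Mitotic genes form a periodic programme. Their mRNA rises through the G2 phase, peaks in mitosis and falls after division. The programme is switched on by the MuvB complex together with B-MYB (MYBL2) and FOXM1, and it is held down in resting cells by the DREAM complex. Both complexes are known to reach many of its promoters through a short element called the cell cycle genes homology region, or CHR, which often lies near CCAAT boxes bound by NF-Y.

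The promoters of the genes show what they have in common in sequence. RefSeq promoter windows (GRCh38.p14, 250 bases before to 50 bases after the gene start) were given for 42 of the 50 genes. The CHR was searched as TTTGAA or TTCGAA, on both strands, and was found in 32 of the 42 windows (76.2%), against 11.0% of the 12444 tested genes with a window. CCAAT, also on both strands, was found in 34 of the 42 (81.0%), against 36.3% of the tested genes. Both stood together in 28 windows (66.7%), against 4.66% of the tested genes. The letters of the TEAD element, GGAATG on both strands, were found in 5 windows (11.9%) against 10.8%. Those of the E2F element (TTTCCCGC, TTTCGCGC, TTTGCCGC or TTTGGCGC, on both strands) were found in 3 windows (7.14%) against 5.38%. Among the genes that passed the test of TAZ knockdown, 8 of the 11 lower ones with a window held the CHR, as did 23 of the 30 that did not pass. The windows of CDC20, MAD2L1, HMMR, ANLN and KIF18A are printed because these genes were lower in every fit that left out 1 library (TTK, which was too, has no window), and that of CDC25B because it was the only gene of the 50 that was higher. Each is written from upstream to 30 bases into the transcript, with capitals marking the CHR and CCAAT letters on either strand (TTCAAA and ATTGG are the same letters read from the other strand).
CDC20: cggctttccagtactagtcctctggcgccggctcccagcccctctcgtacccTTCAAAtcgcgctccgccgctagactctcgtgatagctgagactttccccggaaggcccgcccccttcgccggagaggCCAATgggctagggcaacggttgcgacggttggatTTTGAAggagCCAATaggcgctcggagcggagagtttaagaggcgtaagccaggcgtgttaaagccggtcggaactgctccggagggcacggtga
MAD2L1: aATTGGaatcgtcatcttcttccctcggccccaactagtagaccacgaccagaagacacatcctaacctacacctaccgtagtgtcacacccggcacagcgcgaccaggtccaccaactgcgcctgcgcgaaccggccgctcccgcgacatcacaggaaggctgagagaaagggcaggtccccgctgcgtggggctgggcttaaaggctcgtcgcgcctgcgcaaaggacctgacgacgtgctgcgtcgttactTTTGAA
HMMR: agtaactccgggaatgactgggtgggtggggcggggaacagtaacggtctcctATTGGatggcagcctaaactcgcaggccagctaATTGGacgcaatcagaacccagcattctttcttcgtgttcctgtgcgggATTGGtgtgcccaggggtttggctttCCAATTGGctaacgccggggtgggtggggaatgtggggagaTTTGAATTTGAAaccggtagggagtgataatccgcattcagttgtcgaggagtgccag
ANLN: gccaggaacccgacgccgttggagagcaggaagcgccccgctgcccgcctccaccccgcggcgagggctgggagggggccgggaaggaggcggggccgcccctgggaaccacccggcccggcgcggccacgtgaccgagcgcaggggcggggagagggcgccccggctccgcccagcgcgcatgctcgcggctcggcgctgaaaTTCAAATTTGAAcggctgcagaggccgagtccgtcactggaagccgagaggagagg
KIF18A: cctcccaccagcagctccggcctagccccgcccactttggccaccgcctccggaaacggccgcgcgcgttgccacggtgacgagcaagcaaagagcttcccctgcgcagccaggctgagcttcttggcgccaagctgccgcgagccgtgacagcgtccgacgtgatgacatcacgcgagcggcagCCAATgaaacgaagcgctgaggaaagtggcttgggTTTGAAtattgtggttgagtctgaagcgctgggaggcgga
CDC25B: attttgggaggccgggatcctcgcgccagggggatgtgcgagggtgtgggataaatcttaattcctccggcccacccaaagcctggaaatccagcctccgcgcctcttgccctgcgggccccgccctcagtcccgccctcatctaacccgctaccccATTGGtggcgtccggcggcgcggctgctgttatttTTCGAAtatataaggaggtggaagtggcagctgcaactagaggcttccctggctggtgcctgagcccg

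The window of CDC20 lies at chr1:43358751-43359010 on the plus strand, and its CHR letters begin 178 and 65 bases before the start. That of MAD2L1 lies at chr4:120066819-120067078 on the minus strand, with CHR letters that begin at base 25 of the transcript. HMMR, at chr5:163460402-163460661 on the plus strand, has back-to-back CHR letters that begin 28 and 22 bases before the start, and CCAAT letters at 5 places. ANLN, at chr7:36389632-36389891 on the plus strand, has CHR letters that begin 26 and 20 bases before the start and no CCAAT letters. KIF18A, at chr11:28108127-28108386 on the minus strand, has CHR letters that begin 10 bases before the start and CCAAT letters that begin 45 bases before it. CDC25B, at chr20:3796080-3796339 on the plus strand, has the TTCGAA form 38 bases before the start and CCAAT letters 73 bases before it. For CDC25B the start of the window is 153 bases from that of its most counted transcript. A match of letters is not evidence that a factor binds there.

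Total counts per library ran from 48307548 to 71749634, and 16966 genes passed the filter on low counts, all 50 mitotic genes among them. Levels are given as CPM (gene counts after scaling each library to the same normalized total) for comparisons between libraries, and as the deposited TPM, which is scaled for transcript length, for comparisons between genes. The lowest count of any of the 50 genes in any library was 950. WWTR1 mRNA in the TAZ-siRNA libraries was 8.64% of control-siRNA (edgeR adjusted p of 2.5e-10). Vimentin (VIM), CD44 and the keratins KRT8 and KRT18 were abundant in every library, whereas the leukocyte genes PTPRC and CD3E were at 0 in all 6, which allows up to 0.0412 to 0.0618 CPM at a floor of 3 counts (counting error only). Of the defining epithelial genes, CDH1 was at 0.0406 to 0.578 CPM and EPCAM at 0.771 to 1.59 CPM, and the hormone receptor genes ESR1 and PGR did not exceed 0.0895 CPM. Of the endothelial genes, PECAM1 was at 4.15 to 6.29 CPM and VWF did not exceed 0.315 CPM. The macrophage gene CD68, which tumour lines also express, was at 51.8 to 79.8 CPM, and it was lower with TAZ-siRNA (log2 fold change -0.42, adjusted p = 0.0019 by edgeR). Other genes of these marker lists moved as well. SPARC (log2 fold change 0.74, adjusted p = 6.1e-05 by edgeR) and KRT19 (log2 fold change 0.37, adjusted p = 0.0012 by edgeR) rose, and AXL (log2 fold change -0.35, adjusted p = 0.0023 by edgeR) and GATA3 (log2 fold change -0.48, adjusted p = 0.0081 by edgeR) fell. The part of these markers in the results was not tested.

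In response to TAZ knockdown, 14 of the 50 genes fell (28%), 1 rose and 35 did not pass the threshold of an adjusted p of 0.05 (the quasi-likelihood test of edgeR, adjusted by Benjamini-Hochberg across all tested genes). Standard errors and intervals are from this model with n = 3 libraries in each group. Of all genes tested, 10.2% fell and 11.9% rose by the same rule. In bulk RNA, fewer cells in a phase and less RNA per cell cannot be told apart. The falls were small. The levels of the 14 genes were 73.8 to 90.0% of control-siRNA, from ANLN, a scaffold of the cytokinetic ring, to CCNB1, the mitotic cyclin. The median log2 fold change of the 50 genes was -0.13, against -0.0054 for all genes tested, and the largest in size was -0.52, for CENPE. The sign was negative in 41 of the 50 genes (82%), whereas 50.8% of all genes tested had a negative sign. In 24 genes every TAZ-siRNA library lay below every control-siRNA library, against 19.6% of all genes tested, and in 2 genes every TAZ-siRNA library lay above, against 20% of all genes. At an unadjusted p under 0.05, 24 genes were lower and 1 was higher, against 17.4 and 18.4% of all genes. Single libraries moved these values. Without TAZ-siRNA replicate 3 the median was -0.073. In place of 14, 7 genes were lower (14%) without control-siRNA replicate 1, against 5.74% of all genes. Without control-siRNA replicate 2, 6 genes were lower (12%), against 4.84% of all genes.

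**Figure D1:**
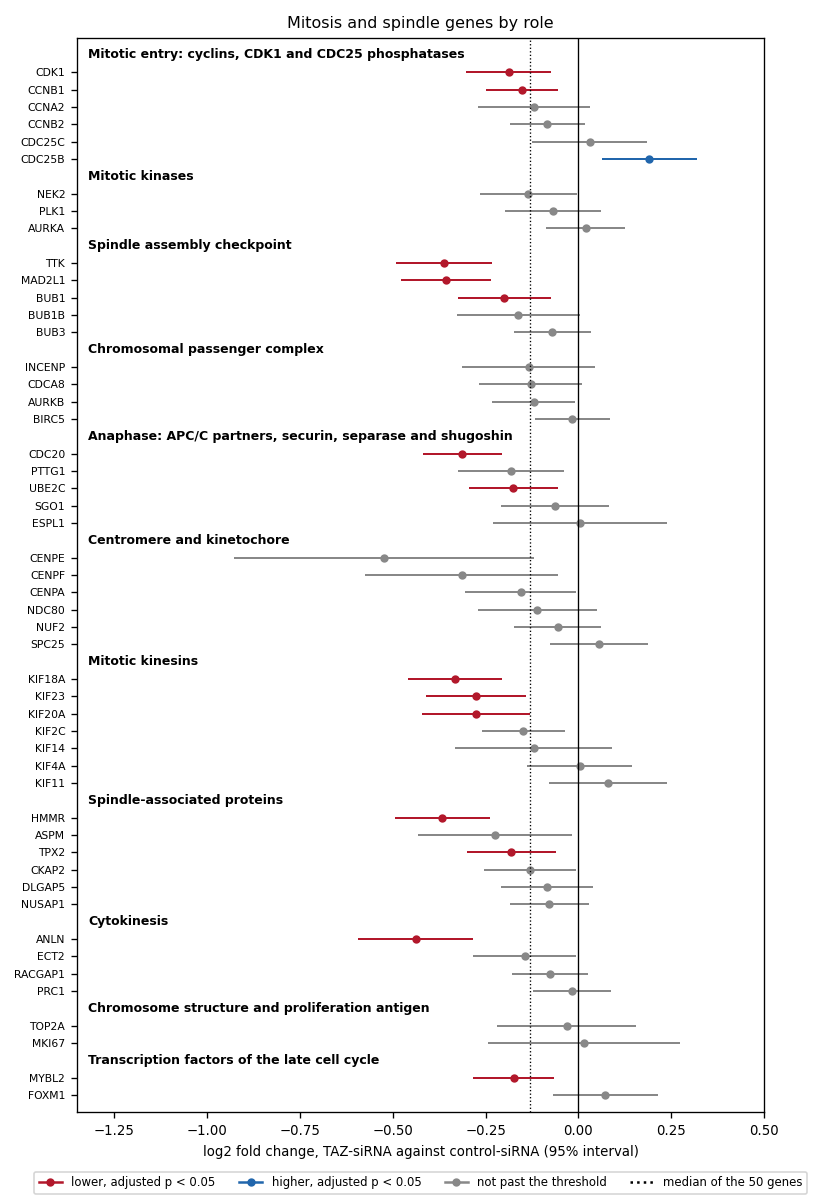
Log2 fold change of each of the 50 genes (TAZ-siRNA against control-siRNA, horizontal axis) with its 95% interval from edgeR, in groups by role. Red points are the 14 genes that fell, the blue point is CDC25B, grey points did not pass the threshold, and the dotted line is the median of -0.13 with all 6 libraries (-0.073 without TAZ-siRNA replicate 3).

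Of the 5 genes of the spindle assembly checkpoint, 3 fell (60%), against 10.2% of all genes tested. This checkpoint holds a cell in metaphase until each chromosome is attached to the spindle. With limma on log2(FPKM + 1), 2 of the 5 passed the threshold, MAD2L1 and TTK. In all 5 the TAZ-siRNA libraries lay below the control-siRNA libraries, as in 19.6% of all genes. MAD2L1 (NCBI gene 4085, chromosome 4, 120055623 to 120066848) encodes MAD2, the inhibitor of CDC20 in the checkpoint complex. Its mRNA was 62.9, 64.3 and 66.7 CPM in control-siRNA replicates 1 to 3, against 50.9, 52.5 and 47.98 CPM in the TAZ-siRNA replicates. The log2 fold change was -0.36 ± 0.054 (SE), with an edgeR adjusted p of 0.0014, a fall of 21.9%. TTK (NCBI gene 7272, chromosome 6, 80004147 to 80042651), the MPS1 kinase that starts checkpoint signalling, was at 78.9, 75.4 and 73.6 CPM in control-siRNA replicates 1 to 3, against 62.6, 59.2 and 55.5 CPM in the TAZ-siRNA replicates. The groups did not overlap, and the log2 fold change was -0.36 ± 0.057 (SE), with an edgeR adjusted p of 0.0018. BUB1 (NCBI gene 699, chromosome 2, 110637528 to 110678107), a kinase that recruits checkpoint proteins to the kinetochore, had the highest TPM of the group (84.6 ± 3.70 with control-siRNA and 76.6 ± 6.74 with TAZ-siRNA, SD, n = 3). It was 147, 142 and 141 CPM in control-siRNA replicates 1 to 3, against 129, 130.1 and 115 CPM in the TAZ-siRNA replicates, with the lowest value in TAZ-siRNA replicate 3. The log2 fold change was -0.20 ± 0.055 (SE), with an edgeR adjusted p of 0.027. The other two, BUB1B (log2 fold change -0.16, 95% interval -0.32 to 0.0008) and BUB3 (-0.07, -0.17 to 0.03), did not pass the threshold. With an offset for GC content and transcript length fitted to each library, both did (log2 fold changes -0.19 and -0.16, adjusted p = 0.045 and 0.029 by edgeR).

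CDC20 and UBE2C were the 2 of 5 anaphase genes that fell (40%), against 10.2% of all genes tested. They act with the anaphase-promoting complex (APC/C) to destroy cyclin B and securin. CDC20 (NCBI gene 991, chromosome 1, 43358981 to 43363203), the activator of the APC/C and the target of the checkpoint, was at 79.7, 81.02 and 82.2 CPM in control-siRNA replicates 1 to 3, against 63.7, 67.5 and 64.5 CPM in the TAZ-siRNA replicates. These values were tightly grouped and did not overlap. The log2 fold change was -0.31 ± 0.047 (SE), with an edgeR adjusted p of 0.0014, the smallest adjusted p of the 50 genes. UBE2C (NCBI gene 11065, chromosome 20, 45812576 to 45816957), the ubiquitin-conjugating enzyme of the APC/C, had the highest TPM of the 50 genes, at 460.4 ± 12.7 with control-siRNA and 424 ± 5.50 with TAZ-siRNA (SD, n = 3). It was 165, 158 and 173 CPM in control-siRNA replicates 1 to 3, against 144, 141 and 153 CPM in the TAZ-siRNA replicates, and its log2 fold change was -0.18 ± 0.053 (SE), with an edgeR adjusted p of 0.037. With the offset for GC content and length, the log2 fold change of UBE2C was -0.06 and the call was lost (adjusted p = 0.23 by edgeR). With 1 library left out, UBE2C kept its call only without TAZ-siRNA replicate 3 (adjusted p up to 0.16 by edgeR in the other fits). PTTG1 gained a call in that fit. PTTG1 (securin) did not pass the threshold (log2 fold change -0.18, adjusted p = 0.065 by edgeR), nor did SGO1, which protects centromeric cohesin (log2 fold change -0.06), or ESPL1, the separase that cuts cohesin (0.0042).

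Of the enzymes of mitotic entry, CDK1, the kinase that drives mitosis, and its partner cyclin B1 (CCNB1) fell, and the phosphatase CDC25B, an activator of CDK1, rose. Of the 6 genes in this group, 33.3% fell and 16.7% rose, against 10.2 and 11.9% of all genes tested. CDK1 (NCBI gene 983, chromosome 10, 60778331 to 60794852) was 197, 192 and 183 CPM in control-siRNA replicates 1 to 3, against 173, 167 and 161 CPM in the TAZ-siRNA replicates, and its log2 fold change was -0.19 ± 0.051 (SE), with an edgeR adjusted p of 0.024. CCNB1 (NCBI gene 891, chromosome 5, 69167010 to 69178245) was 149, 146 and 148 CPM in control-siRNA replicates 1 to 3, against 132, 134 and 132 CPM in the TAZ-siRNA replicates, with little spread in either group, and its log2 fold change was -0.15 ± 0.043 (SE), with an edgeR adjusted p of 0.028. With the offset for GC content and length, the log2 fold change was -0.10 for each of the 2 genes and neither passed the threshold (adjusted p = 0.18 for CDK1 and 0.089 for CCNB1 by edgeR). CDC25B (NCBI gene 994, chromosome 20, 3786772 to 3806121) was 99.9, 96.03 and 92.3 CPM in control-siRNA replicates 1 to 3, against 110.2, 116 and 103 CPM in the TAZ-siRNA replicates. The lowest of its TAZ-siRNA values, in replicate 3, was close to the highest control value, and its log2 fold change was 0.19 ± 0.057 (SE), with an edgeR adjusted p of 0.036. Its call held without TAZ-siRNA replicate 3 and was lost with each of the other 5 libraries left out (adjusted p up to 0.14 by edgeR). Cyclin A2 (CCNA2, log2 fold change -0.12), cyclin B2 (CCNB2, -0.08) and the phosphatase CDC25C (0.03) did not pass the threshold.

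**Figure D2:**
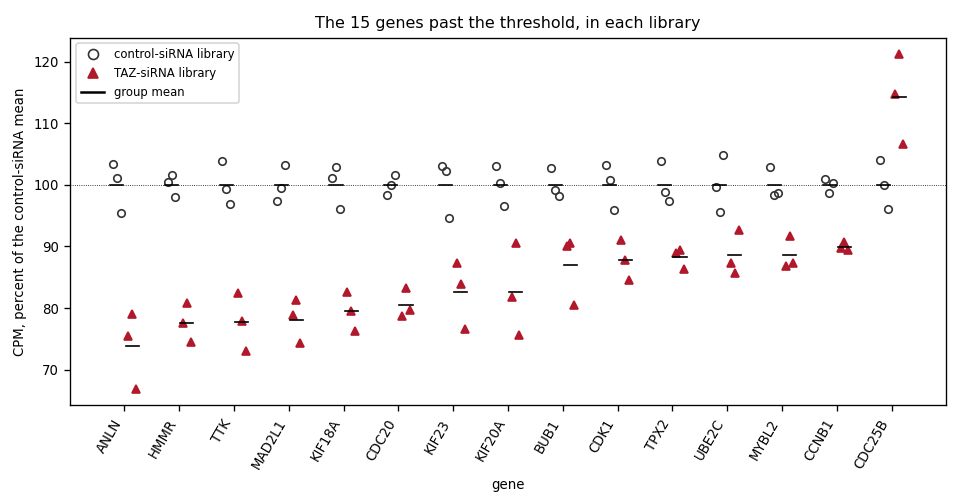
CPM of the 15 genes past the threshold in each library, as a percentage of the control-siRNA mean (vertical axis, which does not start at 0), ordered by log2 fold change. Open circles are control-siRNA libraries, red triangles are TAZ-siRNA libraries and bars are group means, which run from 73.8% for ANLN to 114% for CDC25B.

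Of the 7 kinesins, motors that move chromosomes and sort spindle microtubules, 3 fell (42.9%), against 10.2% of all genes tested. Without control-siRNA replicate 2, KIF18A was the only kinesin called lower, when 4.84% of all genes were. KIF18A (NCBI gene 81930, chromosome 11, 28020619 to 28108180), which dampens chromosome movements at the metaphase plate, was 48.5, 49.4 and 46.1 CPM in control-siRNA replicates 1 to 3, against 39.7, 38.2 and 36.6 CPM in the TAZ-siRNA replicates. The groups were well apart, and the log2 fold change was -0.33 ± 0.056 (SE), with an edgeR adjusted p of 0.0026. KIF23 (NCBI gene 9493, chromosome 15, 69414325 to 69448427), a subunit of centralspindlin, was 117, 116 and 107 CPM in control-siRNA replicates 1 to 3, against 98.7, 94.9 and 86.7 CPM in the TAZ-siRNA replicates, and its log2 fold change was -0.28 ± 0.059 (SE), with an edgeR adjusted p of 0.0083. KIF20A (NCBI gene 10112, chromosome 5, 138179112 to 138187723), a motor of the central spindle, was 97.5, 94.9 and 91.3 CPM in control-siRNA replicates 1 to 3, against 77.4, 85.6 and 71.5 CPM in the TAZ-siRNA replicates. Its TAZ-siRNA values were the most scattered of the 3 kinesins, and the log2 fold change was -0.28 ± 0.065 (SE), with an edgeR adjusted p of 0.013. KIF2C, a microtubule depolymerase with the highest TPM of the kinesins, was 100.3, 98.7 and 101 CPM in control-siRNA replicates 1 to 3, against 93.3, 92.2 and 85.4 CPM in the TAZ-siRNA replicates, which did not overlap, but the difference did not pass the threshold (log2 fold change -0.15, adjusted p = 0.055 by edgeR). KIF11, the motor that separates the spindle poles, was 122, 118 and 112 CPM in control-siRNA replicates 1 to 3, against 134, 127 and 109.7 CPM in the TAZ-siRNA replicates. These groups overlapped, and its log2 fold change of 0.08 (95% interval -0.08 to 0.24) was the largest positive value after that of CDC25B. KIF14, a motor of cytokinesis (log2 fold change -0.12), and KIF4A, a motor bound to chromosomes (0.0029), did not pass the threshold.

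Among the 6 spindle-associated proteins, HMMR and TPX2 fell (33.3%), against 10.2% of all genes tested. With 1 library left out, HMMR kept its call in every fit. TPX2 kept its call only without TAZ-siRNA replicate 3 (adjusted p up to 0.14 by edgeR in the other fits). HMMR (NCBI gene 3161, chromosome 5, 163460632 to 163491941), a hyaluronan receptor that is also a spindle pole protein, was 31.3, 31.6 and 30.5 CPM in control-siRNA replicates 1 to 3, against 24.1, 25.2 and 23.2 CPM in the TAZ-siRNA replicates. Both groups were narrow, and the log2 fold change was -0.37 ± 0.057 (SE), with an edgeR adjusted p of 0.0016. TPX2 (NCBI gene 22974, chromosome 20, 31739248 to 31801802), which activates Aurora A on the spindle, was 399, 380.3 and 374 CPM in control-siRNA replicates 1 to 3, against 342, 344 and 332 CPM in the TAZ-siRNA replicates, and its log2 fold change was -0.18 ± 0.053 (SE), with an edgeR adjusted p of 0.034. The other 4 bind spindle poles or microtubules, and their log2 fold changes were negative and did not pass the threshold (ASPM -0.22, CKAP2 -0.13, DLGAP5 -0.09 and NUSAP1 -0.08). Of the 4 cytokinesis genes, 1 fell (25%), against 10.2% of all genes tested. That gene, ANLN (NCBI gene 54443, chromosome 7, 36389809 to 36453791), had the largest change among the genes past the threshold. It was 375, 367 and 346 CPM in control-siRNA replicates 1 to 3, against 274, 287 and 243 CPM in the TAZ-siRNA replicates. The groups lay far apart, and the log2 fold change was -0.44 ± 0.069 (SE), with an edgeR adjusted p of 0.0017, a fall of 26.2%. ECT2 (log2 fold change -0.14), the exchange factor that activates RhoA at the cell equator, RACGAP1 (-0.08), its centralspindlin partner, and PRC1 (-0.02), which bundles midzone microtubules, did not pass the threshold.

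No gene passed the threshold among the 3 mitotic kinases, the 4 genes of the chromosomal passenger complex, the 6 centromere and kinetochore genes, or the pair of TOP2A and MKI67. Of all genes tested, 10.2% fell and 11.9% rose, and groups this small can hold none at those shares. The largest fitted log2 fold change belonged to CENPE, a kinetochore motor. Its mRNA was 58.1, 59.9 and 43.2 CPM in control-siRNA replicates 1 to 3, against 45.3, 33.7 and 33.03 CPM in the TAZ-siRNA replicates. Control-siRNA replicate 3 lay below TAZ-siRNA replicate 1, so the groups overlapped, and the log2 fold change was -0.52 ± 0.168 (SE), with an edgeR adjusted p of 0.07. CENPF, a large kinetochore protein, followed (log2 fold change -0.31, adjusted p = 0.08 by edgeR). NUF2, of the NDC80 complex, had the highest TPM of the kinetochore genes and was 55.6, 54.7 and 51.9 CPM in control-siRNA replicates 1 to 3, against 52.8, 52.8 and 50.6 CPM in the TAZ-siRNA replicates, with a 95% interval of -0.17 to 0.06 for its log2 fold change. SPC25 (log2 fold change 0.05), of the same complex, was, beside CDC25B, the gene in which every TAZ-siRNA library lay above the controls, by a margin that did not pass the threshold (adjusted p = 0.54 by edgeR). CENPA (-0.16), the centromeric histone, and NDC80 (-0.11) were not past it either.

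AURKB, the kinase of the chromosomal passenger complex, was 43.1, 43.97 and 43.4 CPM in control-siRNA replicates 1 to 3, against 39.9, 39.9 and 40.2 CPM in the TAZ-siRNA replicates. It did not overlap between the groups and did not pass the threshold (log2 fold change -0.12, adjusted p = 0.11 by edgeR). Its partners INCENP (-0.13), CDCA8 (borealin, -0.13) and BIRC5 (survivin, -0.02) had negative values too. AURKA, the Aurora kinase of the spindle poles, was 86.4, 84.9 and 89.4 CPM in control-siRNA replicates 1 to 3, against 89.3, 89.8 and 85.2 CPM in the TAZ-siRNA replicates, and the interval of its log2 fold change was -0.08 to 0.12. PLK1, a kinase of mitotic entry and spindle assembly, had a log2 fold change of -0.07, and NEK2, which splits the centrosomes, one of -0.13. TOP2A, the topoisomerase that untangles sister chromatids, was 632, 592 and 564 CPM in control-siRNA replicates 1 to 3, against 615, 627 and 508 CPM in the TAZ-siRNA replicates, with a log2 fold change of -0.03 (95% interval -0.22 to 0.15). MKI67, which encodes the proliferation antigen Ki-67, had a log2 fold change of 0.02 (-0.24 to 0.27). In 19 of the 35 genes that did not pass, the 95% interval lay within 0.25 of 0 on the log2 scale. This bound is larger than the changes of some genes that fell, such as CCNB1 (-0.15) and BUB1 (-0.20). Changes of that size are therefore not excluded in the 19 genes.

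Of the 2 transcription factors of the programme, MYBL2 fell and FOXM1 did not pass the threshold. With 1 library left out, MYBL2 kept its call only without TAZ-siRNA replicate 2 or 3 (adjusted p up to 0.12 by edgeR otherwise). MYBL2 (NCBI gene 4605, chromosome 20, 43667019 to 43716496) was 216, 206 and 207 CPM in control-siRNA replicates 1 to 3, against 182, 192 and 183 CPM in the TAZ-siRNA replicates, and its log2 fold change was -0.17 ± 0.048 (SE), with an edgeR adjusted p of 0.027. FOXM1 was 123, 123 and 120.03 CPM in control-siRNA replicates 1 to 3, against 129.96, 139 and 116 CPM in the TAZ-siRNA replicates. The TAZ-siRNA values of FOXM1 lay on both sides of the control values, and the log2 fold change was 0.07 ± 0.063 (SE), with an edgeR adjusted p of 0.45. The difference between the changes of these 2 genes was not tested.

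Between genes, the deposited TPM averaged over the 6 libraries ran from 12.1 for CENPE to 442 for UBE2C, with a median of 63.4. PTTG1 (291 TPM), TPX2 (231), TOP2A (229.9) and CDK1 (209) followed UBE2C. ESPL1 (14.2 TPM) and ASPM (14.5) were next to the lowest. Genes that fell were found at both ends of this range, from HMMR (20.3 TPM) to UBE2C.

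The TAZ-siRNA libraries were not alike. The median of log2 CPM relative to the control-siRNA mean, over the 50 genes, was 0.040, -0.0002 and -0.035 in control-siRNA replicates 1 to 3, against -0.086, -0.073 and -0.21 in the TAZ-siRNA replicates. TAZ-siRNA replicate 3 was the lowest of the 6 libraries in 40 of the 50 genes, and control-siRNA replicate 1 was the highest in 29. The same median over all genes tested stayed between -0.0018 and 0.0035 in every library. Without TAZ-siRNA replicate 3, the median log2 fold change of the 50 genes was -0.073. In that fit 15 genes were lower (30%), against 16.1% of all genes, and 3 were higher, namely CDC25B, FOXM1 (log2 fold change 0.14, adjusted p = 0.017 by edgeR) and KIF11 (0.16, adjusted p = 0.012), against 17.6% of all genes.

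**Figure D3:**
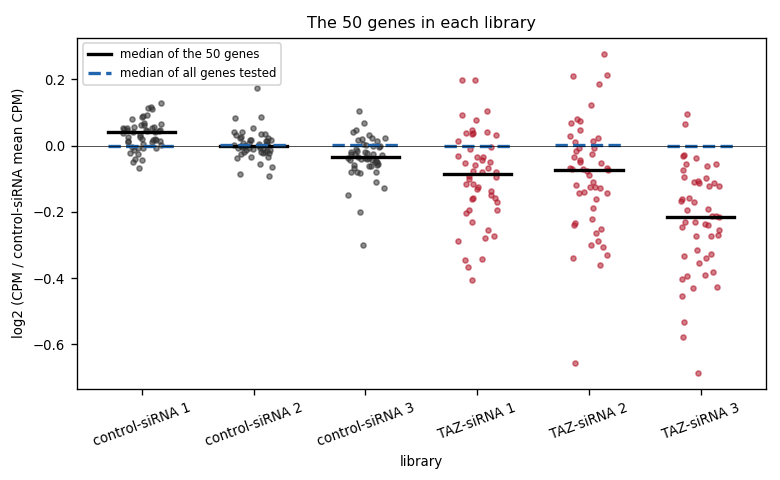
Log2 of CPM over the control-siRNA mean CPM (vertical axis) for each of the 50 genes in each of the 6 libraries. Points are genes (black, control-siRNA and red, TAZ-siRNA), black lines are medians of the 50 genes and blue dashed lines are medians of all genes tested, and TAZ-siRNA replicate 3 has the lowest median, -0.21.

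Transcript length moved with this difference between the TAZ-siRNA libraries. For the 14 genes whose most counted transcript had at least 4000 bases, the median of TAZ-siRNA replicate 3 minus the mean of the other TAZ-siRNA libraries was -0.25 in log2 CPM, and for the 36 shorter genes it was -0.088. Over all genes tested the same medians were -0.11 and 0.054. Across the 50 genes, Pearson's r between log2 length and this difference was -0.79 (Spearman's rho -0.74), and across the 16738 tested genes with a length it was -0.26 (rho -0.40). These are correlations across genes within the same libraries, and genes are not independent replicates. In the control-siRNA group, replicate 3 minus the others gave an r of -0.61 across the 50 genes. The longest transcripts were those of MKI67, ASPM, CENPF and CENPE, whose log2 CPM in TAZ-siRNA replicate 3 differed from the others by -0.42, -0.25, -0.32 and -0.24, whereas BUB3, next in length, differed by 0.02. With an offset for GC content and length fitted to each library, 20 of the 50 genes were lower (40%) and 1 was higher, with a median log2 fold change of -0.10. Of all genes tested, 14.6% were lower and 12.4% higher in that fit, so calls were more frequent among all genes too. The call was lost by CCNB1, CDK1 and UBE2C and gained by 9 genes, namely ASPM, BUB1B, BUB3, CENPE, CENPF, ECT2, INCENP, KIF14 and KIF2C. CENPE (log2 fold change -0.59, adjusted p = 0.014 by edgeR) and CENPF (-0.41, adjusted p = 0.0022) had the largest values among the gained genes.

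**Figure D4:**
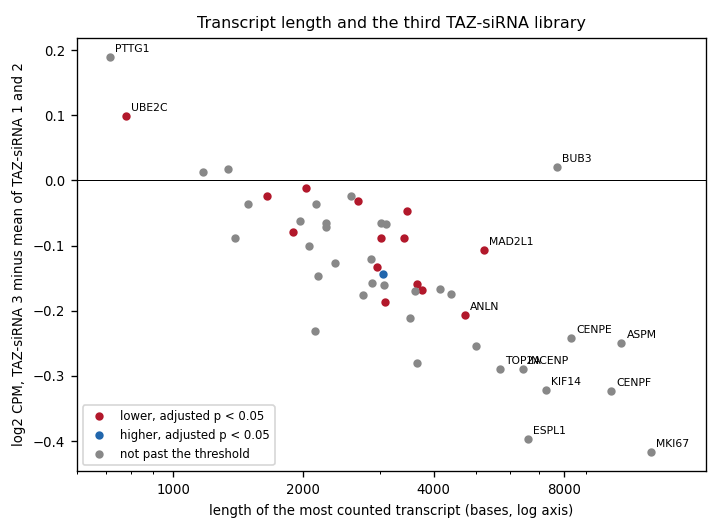
Length of the most counted transcript of each of the 50 genes in bases (horizontal log axis) against log2 CPM in TAZ-siRNA replicate 3 minus the mean of TAZ-siRNA replicates 1 and 2 (vertical axis). Red points fell, the blue point rose, grey points did not pass the threshold, and longer genes tend to lie lower, BUB3 apart (Pearson's r of -0.79 over 50 genes).

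The number of genes called lower depended on the libraries, and so did the number among all genes. ANLN, CDC20, HMMR, KIF18A, MAD2L1 and TTK passed the threshold with each of the 6 libraries left out in turn, with edgeR adjusted p-values no higher than 0.024 and the log2 fold change of ANLN at -0.49 to -0.37. KIF23 lost its call without control-siRNA replicate 2 (adjusted p = 0.052 by edgeR). KIF20A lost it without control-siRNA replicate 1 or 2 or TAZ-siRNA replicate 1 (adjusted p up to 0.068), and CDK1 without control-siRNA replicate 1 or 2 or TAZ-siRNA replicate 2 (up to 0.11). BUB1, CCNB1 and MYBL2 kept theirs only without TAZ-siRNA replicate 2 or 3, with adjusted p-values of up to 0.11, 0.11 and 0.12 in the other fits. TPX2 (up to 0.14), UBE2C (0.16) and CDC25B (0.14) kept theirs only without TAZ-siRNA replicate 3. CENPE and CENPF gained a call without control-siRNA replicate 3 or TAZ-siRNA replicate 1, ASPM without TAZ-siRNA replicate 1, and PTTG1 without TAZ-siRNA replicate 3. With limma on log2(FPKM + 1) 9 genes were lower (18%), against 8.23% of all genes. BUB1, CCNB1, CDK1, KIF23, MYBL2 and TPX2 were not among them, and PTTG1 was (adjusted p = 0.045 by limma). The fewest calls were made without control-siRNA replicate 2, when 6 of the 50 genes were lower (12%), against 4.84% of all genes.

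**Figure D5:**
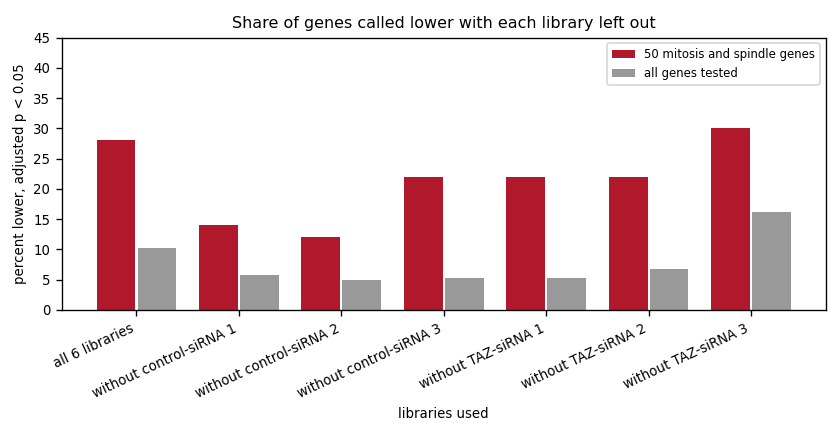
Percentage of the 50 genes (red) and of all genes tested (grey) called lower at an adjusted p under 0.05 by edgeR, with all 6 libraries and with each library left out. The red bars are lowest, at 12%, when control-siRNA replicate 2 is left out and highest, at 30%, when TAZ-siRNA replicate 3 is, and the grey bars run from 4.84 to 16.1%.

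Falls and rises were both found among other genes of mitosis. Of 76 genes in 6 further lists, 14 fell (18.4%) and 4 rose (5.26%), with a median log2 fold change of -0.10, against 10.2% lower and 11.9% higher among all genes tested. The lists are short, and several lie near those shares. Among 17 genes of the APC/C, 3 fell (17.6%) and 2 rose (11.8%). The subunits that fell were CDC16 (log2 fold change -0.22, adjusted p = 0.007 by edgeR), ANAPC11 (log2 fold change -0.39, adjusted p = 0.01 by edgeR) and ANAPC13 (log2 fold change -0.21, adjusted p = 0.026 by edgeR). Those that rose were FZR1, the other activator of the APC/C (log2 fold change 0.25, adjusted p = 0.03 by edgeR), and the subunit CDC23 (log2 fold change 0.18, adjusted p = 0.03 by edgeR). Among 28 further kinetochore genes, 6 fell (21.4%) and 1 rose (3.57%). ZWILCH, of the complex that brings dynein to kinetochores, fell (log2 fold change -0.34, adjusted p = 0.0013 by edgeR), as did CENPM (log2 fold change -0.44, adjusted p = 0.0036 by edgeR), a subunit of the inner kinetochore. MIS12, of the outer kinetochore, rose (log2 fold change 0.28, adjusted p = 0.0049 by edgeR). Of 11 DREAM and MuvB genes, RBL2, the p130 protein, and E2F5 fell (log2 fold changes -0.27 and -0.21, adjusted p = 0.0086 and 0.045 by edgeR), and LIN52 rose (log2 fold change 0.38, adjusted p = 0.012 by edgeR). Of the 8 condensin genes, which compact chromosomes, 1 fell (12.5%), NCAPG (log2 fold change -0.19, adjusted p = 0.04 by edgeR), and SMC2 (log2 fold change -0.19, adjusted p = 0.092 by edgeR) and NCAPG2 (log2 fold change -0.13, adjusted p = 0.11 by edgeR) did not pass the threshold. Of the 10 cohesin genes, 1 fell (10%), the sororin gene CDCA5 (log2 fold change -0.17, adjusted p = 0.038 by edgeR), and PDS5B (log2 fold change 0.22, adjusted p = 0.054 by edgeR) and SMC3 (log2 fold change -0.15, adjusted p = 0.088 by edgeR) did not pass it. The inhibitory kinase of CDK1, PKMYT1, fell (log2 fold change -0.26, adjusted p = 0.012 by edgeR), whereas WEE1 did not pass the threshold (log2 fold change 0.18, adjusted p = 0.14 by edgeR). Of the 18 genes past the threshold in these lists, 5 passed it with each library left out in turn (CDC16, ZWILCH, CENPM, SKA3 and MIS12). RBL2 lost its call without control-siRNA replicate 2 (adjusted p = 0.057 by edgeR). PKMYT1 and CENPK lost theirs without control-siRNA replicate 1 or 2, LIN52 without control-siRNA replicate 2 or TAZ-siRNA replicate 1, and ANAPC11 without control-siRNA replicate 3 or TAZ-siRNA replicate 1 (adjusted p up to 0.066, 0.069, 0.063 and 0.055 by edgeR). ANAPC13, CDC23 and CDCA5 passed only without TAZ-siRNA replicate 2 or 3, CENPH only without control-siRNA replicate 2 or TAZ-siRNA replicate 3, and E2F5, FZR1 and NCAPG only without TAZ-siRNA replicate 3 (adjusted p up to 0.12, 0.15, 0.16, 0.085, 0.19, 0.12 and 0.14 in the other fits by edgeR). CENPQ passed in 0 of the 6 fits (adjusted p up to 0.16).

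Genes of the G1/S transition and DNA replication act earlier in the cycle. Of 30 such genes, 11 fell (36.7%) and 0 rose by edgeR's adjusted p, against 10.2% lower and 11.9% higher among all genes tested. At an unadjusted p under 0.05, 15 were lower and 2 higher, against 17.4 and 18.4% of all genes. The 2 higher ones, E2F2 (log2 fold change 0.31, adjusted p = 0.11 by edgeR) and PCNA (0.10, adjusted p = 0.12), did not pass the adjusted threshold. The median log2 fold change of the 30 genes was -0.13. This median was -0.15 with the offset for GC content and length, against -0.10 for the mitotic genes, and -0.097 without TAZ-siRNA replicate 3, against -0.073. The largest falls were in CDC45 (log2 fold change -0.47, adjusted p = 2.9e-04 by edgeR) and CDT1 (log2 fold change -0.41, adjusted p = 0.0012 by edgeR), which load and start the replicative helicase, and MCM2 (log2 fold change -0.32, adjusted p = 0.0013 by edgeR), a subunit of it, also fell. Their median in TAZ-siRNA replicate 3 was -0.19 relative to the control-siRNA mean, against -0.11 and -0.10 in replicates 1 and 2. Whether the mitotic and the replication genes differed in their change was not tested.

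At the level of transcripts the deposited estimates were less steady. Of the 50 genes, 10 have 1 transcript in the table, CDC20, MAD2L1 and KIF20A among them, so that the gene value rests on no division of reads. In 15 genes the share of the gene's count given to its most counted transcript differed by over 20 percentage points between libraries. For CDC25B this share ran from 9.70 to 79.1%, and for BUB1 from 35.4 to 99.9%. Transcripts of these genes were therefore not compared between the groups.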

How the data were processed

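RNA-seq of 3 control-siRNA and 3 TAZ-siRNA preparations was analysed from the deposited tables. The authors made strand-specific mRNA libraries, read them as paired ends of 100 bases, and used HISAT2 (GRCh38) and StringTie (RefSeq genes and transcripts) on the trimmed reads. The submitters' processing notes also name Bowtie 0.12.2 and the mouse build mm8, with no role. Whether counting used strand is not given in the sources used here. The deposited estimated counts are whole numbers that the authors derived from coverage. By the authors, the deposited FPKM was scaled for length and depth, and the deposited TPM for length and then to a common total. Coordinates of genes come from the deposited table (GRCh38). The sample titles number replicates 3 to 5 and the descriptions 1 to 3, and those of the descriptions are used.

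Counts of all genes were compared with edgeR 4.0.16 in R 4.3.3 (TMM, filterByExpr with a minimum count of 10, robust quasi-likelihood test, Benjamini-Hochberg over 16966 genes, threshold 0.05). The biological coefficient of variation was 8.04%. Intervals are 95%. Replicates differed by more than sampling noise in every pair. The methods were tested on simulated counts. Alternatives were DESeq2 1.42.0, upper-quartile factors, other filters, limma 3.58.1 on log2 FPKM with a pseudocount of 1 or 0.1, a replicate block, an offset for GC content (GENCODE transcripts) and length (89.7% of tested genes and all 50 mitotic genes had both), a threshold of 0.01, and each library left out. The offset was a spline with 5 degrees of freedom. No column was left without a sample. The 50 genes, the lists and the tests were chosen with earlier results of these data known. Values in every library are given for the 12 genes with the smallest adjusted p, the 2 largest rises and 2 largest falls, the gene with the highest TPM in each role group, FOXM1 and MYBL2, and the 3 genes with the smallest adjusted p are named in each further list. FZR1, CDC23, CENPH, CENPK, CENPQ, SKA3, the G1/S genes CDC45, CDT1, MCM2, E2F2 and PCNA, and the marker genes that moved were named after their values were seen.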

Additional observations from a re-analysis of the deposited data

How the results depend on the processing

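Of 750 log2 fold changes recomputed for the 50 genes over 15 alternatives, 635 kept their direction and their side of the threshold, 48 lost the threshold, 40 gained it and 27 changed sign, all of the latter in genes that had not passed. The count of 14 lower genes became 9 with limma on log2(FPKM + 1), 21 with a replicate block, 22 with a replicate block and the offset for GC content and length, 7 at an adjusted p under 0.01, and 6 to 15 with each library left out. Lower genes among all genes tested moved as well, from 10.2% to 8.23% with limma on log2(FPKM + 1), 8.27% with limma on log2(FPKM + 0.1), 14.9% with the block, 14.6% with the offset and 17% with both. The block added ASPM, CENPE, CENPF, CKAP2, ECT2, KIF2C and PTTG1 to the 14 lower genes, DESeq2 added CENPF, and upper-quartile factors and the filter of 10 counts in every library each added KIF2C. The count of 1 higher gene became 2 with the block and the offset (SPC25 was added), 0 at 0.01, and 0 to 3 with each library left out. Higher genes among all genes tested went from 11.9% to 13.8% with the block and the offset. With each library left out, 4.84 to 16.1% of all genes were lower and 6.39 to 17.6% higher. All genes called were 1720 at 0.01 and 1937 to 5928 with each library left out. Of the 76 other genes of mitosis, the lower ones were 9 with limma on either FPKM scale, 24 with the replicate block, 23 with the offset, 27 with both, 5 at 0.01 and 6 to 17 with each library left out, and the higher ones were 1 at 0.01 and 1 to 8 with each library left out, beside the shares of all genes above. The cause of these moves was not tested.

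Sign changes were seen in genes that had not passed the threshold, some with values nearly as large as the median of the 50 genes. The log2 fold change of ESPL1 was -0.0016 with upper-quartile factors, -0.0048 with the replicate block, -0.12 with the offset and -0.12 with both, and -0.11 to 0.13 with each library left out. That of KIF4A was -0.0023 with upper-quartile factors, -0.0010 without a filter, -0.063 with the offset and -0.063 with both, and -0.032 to 0.0617 with each library left out. MKI67 was at -0.11 with the offset, -0.12 with both and -0.0861 to 0.15 with each library left out, and NUF2 at 0.015 with the offset and 0.015 with both. CDC25C lay at -0.00685 to 0.0827, TOP2A at -0.0826 to 0.0621 and PRC1 at -0.0321 to 0.00682 with each library left out. Replicate numbers were not shown to pair the samples (correlations of deviations between same-numbered libraries were -0.017, 0.0086 and 0.070), so the replicate block is an alternative only. Each group had 3 libraries, which limits what small changes could be detected.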
